A study of Mus musculus with 8 samples.

Results

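The granzymes and perforin are the killing proteins that cytotoxic lymphocytes keep in secretory granules. Here they are represented by the 6 genes Gzma, Gzmb, Gzmc, Gzmk, Gzmm and Prf1, found by symbol among the 32285 features of the gene expression libraries. They were followed in T cells sorted from the bone marrow of mice carrying the leukemia fusion Runx1::Runx1t1 and of littermate controls. The fusion group had the genotype Runx1 Runx1t1/+; Mx1-Cre, in which Cre, under the interferon-inducible Mx1 promoter, switches on a heterozygous conditional knock-in of the fusion in blood-forming cells, with mCherry marking the cells that express it. The control group carried the same Runx1 Runx1t1/+ allele without Mx1-Cre, according to the study's methods, although its deposited genotype label reads WT. All mice were C57BL/6, sex-matched littermates, received Poly(I:C) by 4 intraperitoneal injections, also in the control group, and were killed 4 weeks after induction. Their ages are not given in the sources used here. T cells were enriched by negative selection and sorted as living, CD3+ and mCherry- cells, so the cells measured are those without the reporter. Each group was 2 pools of 2 mice, and each pool gave 1 5' gene expression library and 1 T cell receptor (TCR) library.

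Perforin inserts into the membrane of a target cell and forms pores, and the granzymes, a family of serine proteases, pass through them and cut proteins inside the target. Granzyme B cuts after aspartate and starts caspase-dependent death, granzymes A and K cut after basic residues, granzyme M cuts after methionine and leucine, and granzyme C is encoded in the granzyme B cluster. Naive T cells hold little of most of them, whereas effector and memory Cd8 T cells, natural killer (NK) cells and some Cd4 T cells make them, with Gzmk a common marker of effector memory cells.

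The libraries held 13633 to 14664 barcodes and 90958101 to 102883449 UMIs (unique molecular identifiers, each 1 counted RNA molecule) per pool. After filtering, 52924 cells were kept, and 49860 of them had a UMI of Cd3d, Cd3e or Cd3g, the genes of the CD3 complex. These T cells were divided by raw co-receptor UMIs into 26800 Cd8 T cells (Cd8a or Cd8b1, no Cd4), 7257 Cd4 T cells (Cd4, no Cd8a or Cd8b1) and 14082 co-receptor-negative T cells, with 1721 cells holding both co-receptors set aside. Median depth in Cd8 T cells was 7599 and 7034.5 UMIs per cell in the Runx1::Runx1t1 pools and 6793 and 6887 in the control pools. Each of the CD3 genes was detected in 89.0 to 91.5% of kept cells. Runx1t1 itself, the fusion partner and the check of the genotype, gave 100 and 107 UMIs over all kept cells of the Runx1::Runx1t1 pools against 15 and 37 in the control pools. The pools shared 226 to 263 cell barcodes per pair, and no shared barcode carried the same clonotype in both. Throughout, paired values are given for replicate 1 and then replicate 2 of a group. CPM is the UMIs of a gene, summed over the cells of a class in a pool and scaled to a total of 1000000 UMIs, and a share is the percentage of cells with at least 1 UMI.

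Over all T cells, Gzma gave 76074 UMIs in 5037 cells, Gzmk 41349 UMIs in 9578 cells, Gzmb 34937 UMIs in 9200 cells, Prf1 13216 UMIs in 9406 cells and Gzmm 11970 UMIs in 4786 cells. Gzmc gave 152 UMIs in 121 cells. Of the other granzyme genes of the mouse, which stood outside the 6, Gzmf gave 13 UMIs and Gzmd, Gzme, Gzmg and Gzmn gave none. Free RNA in the droplets was gauged in 84 B-lineage barcodes (median 4490.5 UMIs) that should lack these genes. Among them, 1 barcode held a Gzma UMI and 1 a Gzmk UMI, a share of 1.19% (Wilson 95% interval 0.210 to 6.44%). The other members were at 0, which allows a share of up to 3.57%. The barcodes were 45 and 16 in the control pools but 20 and 3 in the Runx1::Runx1t1 pools, where free RNA was thus hardly measured. The Gzmk UMI was in Runx1::Runx1t1 replicate 1, in 1 of 20 barcodes (5%, 0.888 to 23.6%), and the Gzma UMI in control replicate 1. All intervals cover counting error only. The shares of Gzmc in every class, and those of Gzma and Gzmm in Cd4 T cells, lay within this range and were read as background. Other shares inside what these few barcodes allow were those of Gzma in control Cd8 T cells and in control co-receptor-negative T cells (4.35% and 4.97%), of Gzmk in Cd4 T cells of control replicate 1 and in control co-receptor-negative T cells (1.27% and 2.16%), of Gzmb in Cd4 T cells of control replicate 1 (3.36%) and of Gzmm in co-receptor-negative T cells of Runx1::Runx1t1 replicate 2 (2.04%). The Wilson interval of a count of 0, which reaches 4.37%, also took in Prf1 in Cd4 T cells of both control pools (3.61% and 4.26%) and Gzmm in co-receptor-negative T cells of Runx1::Runx1t1 replicate 1 (4.36%). By share alone, group differences of these genes in these classes are therefore set against a level that cannot be told apart from free RNA. Clone size was not used in that reading. In control Cd8 T cells Gzma had 627 and 237 CPM in clonotypes of 2 or more cells. It had 14.4 and 24.5 CPM in clonotypes of 1 cell. Gzmk in control co-receptor-negative T cells had 63.9 and 108 CPM in the former and 1.89 and 3.66 CPM in the latter. The listed Gzmb, Prf1 and Gzmm levels were not higher in the former.

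Gzma, Gzmb, Gzmk and Prf1 were all higher in expanded Cd8 clones, as described below, and their promoters are shown for that reason: 250 bases before the start site from RefSeq on GRCm38.p6, in the direction of transcription. Capitals mark the Runx letters TGTGGT (no TGCGGT occurred in these 4) and the T-box letters AGGTGT, each searched on both strands, with no overlap between them.
Gzma, chr13:113100982-113101231, minus strand: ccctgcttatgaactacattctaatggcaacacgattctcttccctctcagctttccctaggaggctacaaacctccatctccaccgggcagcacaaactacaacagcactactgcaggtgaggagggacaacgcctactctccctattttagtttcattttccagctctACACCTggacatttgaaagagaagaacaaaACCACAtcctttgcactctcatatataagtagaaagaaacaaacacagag
Gzmb, chr14:56262335-56262584, minus strand: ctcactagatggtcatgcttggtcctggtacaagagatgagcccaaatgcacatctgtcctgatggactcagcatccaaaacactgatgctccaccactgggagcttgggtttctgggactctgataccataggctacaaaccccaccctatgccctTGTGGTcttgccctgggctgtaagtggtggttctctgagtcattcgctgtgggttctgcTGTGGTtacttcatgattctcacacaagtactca
Gzmk, chr13:113180966-113181215, minus strand: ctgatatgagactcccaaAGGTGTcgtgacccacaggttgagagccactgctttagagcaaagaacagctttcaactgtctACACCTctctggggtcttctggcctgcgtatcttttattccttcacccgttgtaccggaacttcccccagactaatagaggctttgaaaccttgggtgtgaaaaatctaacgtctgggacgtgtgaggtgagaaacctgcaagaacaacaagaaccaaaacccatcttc
Prf1, chr10:61297586-61297835, plus strand: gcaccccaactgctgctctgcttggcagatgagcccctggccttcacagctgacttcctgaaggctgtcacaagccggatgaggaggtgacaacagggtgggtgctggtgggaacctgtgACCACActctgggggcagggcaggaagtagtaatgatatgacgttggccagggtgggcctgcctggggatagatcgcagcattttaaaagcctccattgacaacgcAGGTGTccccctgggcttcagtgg
The Gzma window held 1 Runx match and 1 T-box match. In the Gzmb window there were 2 Runx matches, in the Gzmk window 2 T-box matches, and in the Prf1 window 1 of each. Among 32851 mouse promoters of the same length, 18.6% held TGTGGT or TGCGGT and 11.8% held AGGTGT, so such letters are common. In GENCODE M21 on GRCm38, Gzma and Gzmk are neighbours on chromosome 13 with 70626 bases between them, and Gzmb and Gzmc on chromosome 14 are 24181 bases apart. Gzmm and Prf1 both lie on chromosome 10, 18384339 bases apart. The GENCODE span of Gzmk, 113171608 to 113225908 on the minus strand, reaches farther upstream than the RefSeq start used for the window.

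The first comparison asked in which T cells each gene was used. Cd8 T cells held more Gzma, Gzmb, Gzmm and Prf1 than Cd4 T cells, whereas no difference in Gzmk passed the test over the 4 pools together. Of the 6 members, 4 were higher in Cd8 T cells at an adjusted p under 0.05, against 20.5% of the 13457 genes tested (edgeR's quasi-likelihood test on UMI sums with pool as a block, Benjamini-Hochberg over all genes). Gzmm, the gene with the largest class difference, reached 64.5 and 51.5 CPM in Cd8 T cells of the Runx1::Runx1t1 pools and 30.8 and 42.7 CPM in those of the control pools, against 1.07 to 2.67 CPM in Cd4 T cells of the 4 pools. Every Cd8 value lay above every Cd4 value, and the fitted log2 fold change was 5.04 (SE 0.20). Gzma was higher in Cd8 T cells by 3.89 on the log2 scale (SE 0.61, adjusted p = 0.0018 with edgeR), Prf1 by 1.76 (SE 0.12) and Gzmb by 0.97 (SE 0.19, adjusted p = 0.0048). With 1 cell taken per clonotype the Gzmb difference was 0.12 (adjusted p = 0.37). For Gzmk the log2 difference was 0.12 (SE 0.23, adjusted p = 0.72), a mean over opposite differences: in both Runx1::Runx1t1 pools Cd4 T cells held more Gzmk (219 and 365 CPM) than Cd8 T cells (125 and 276 CPM), and in both control pools they held less (22.7 and 36.8 CPM against 35.4 and 51.0 CPM). For the sparse Gzmc the log2 difference was -0.94 (SE 0.38, adjusted p = 0.082).

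Between Cd8 and co-receptor-negative T cells, Gzmk and Gzmm were the members higher in Cd8 T cells, and Gzmc was lower. These are 2 of 6 members higher against 11.2% of the 13822 genes tested, and 1 lower against 17% (edgeR). Gzmk was 2.29 higher (SE 0.27, adjusted p = 0.0021) and Gzmm 1.64 higher (SE 0.30, adjusted p = 0.011) on the log2 scale, although without Runx1::Runx1t1 replicate 1 the Gzmm difference of 1.46 had an adjusted p of 0.064. The Gzmc difference of -1.29 (SE 0.30, adjusted p = 0.021) comes from shares within the background range, and it lost its call with DESeq2 (adjusted p = 0.064) and without either control pool (edgeR, adjusted p = 0.083 and 0.084). Gzma differed by 1.17 (SE 0.58), Prf1 by 0.88 (SE 0.29) and Gzmb by 0.36 (SE 0.35), none of them past the threshold. With 1 cell per clonotype Gzmb turned its sign and was lower in Cd8 T cells, by 0.73 on the log2 scale (edgeR, adjusted p = 8.4e-04). That setting also leaves out cells without a clonotype, so the makeup of the classes changed with it. A clonotype was known for 48.0 to 56.6% of co-receptor-negative T cells and 76.8 to 81.5% of Cd8 T cells per pool.

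**Figure D1:**
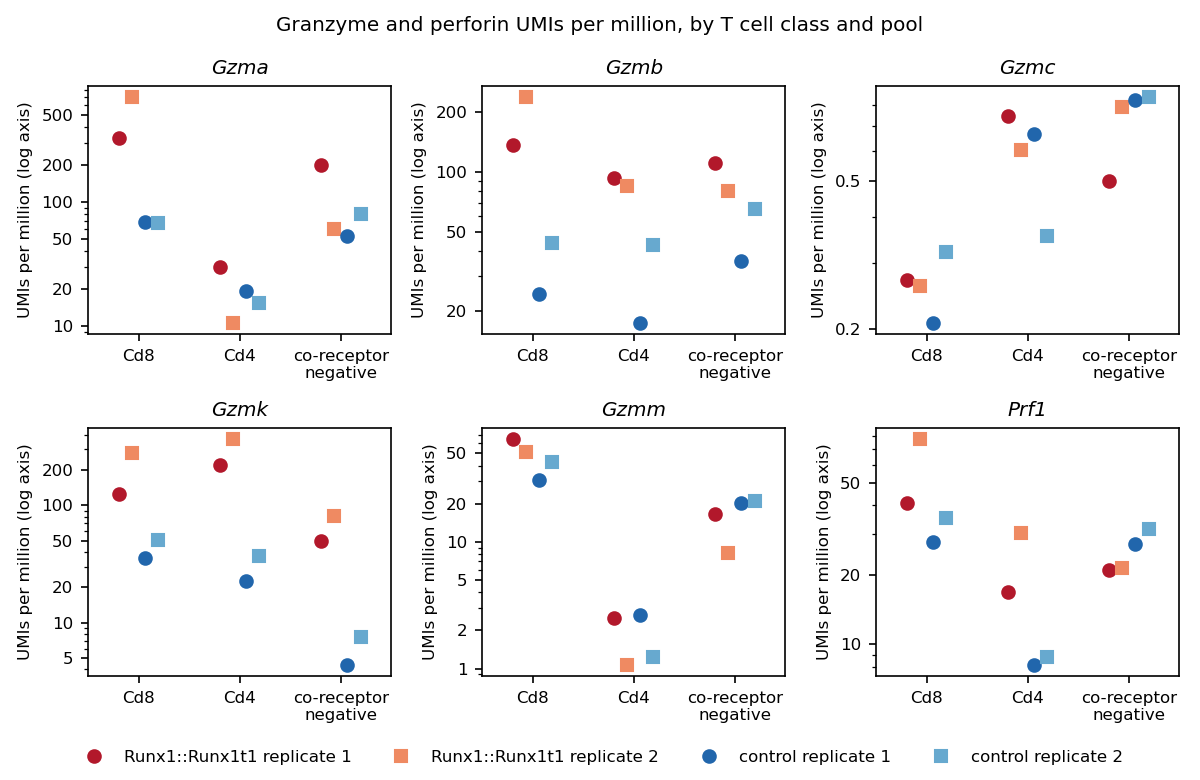
CPM of each gene (logarithmic vertical axes, one panel per gene with its own range) in Cd8, Cd4 and co-receptor-negative T cells, with 1 point per pool and no error bars. Gzmm sits between 30.8 and 64.5 in Cd8 T cells and at or below 2.67 in Cd4 T cells, and Gzmk is higher in the Runx1::Runx1t1 pools in every class.

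The main question of the design was whether the fusion group differed from the control group. In Cd8 T cells all 5 well-detected members had higher sums in the Runx1::Runx1t1 pools, with Gzma the most separated, yet none passed the threshold over all genes. Gzma stood at 326 and 696 CPM in the Runx1::Runx1t1 pools and at 69.5 and 67.6 CPM in the control pools. Gzmb stood at 136 and 236 CPM against 24.4 and 43.9 CPM. Gzmk, the third of these, had 125 and 276 CPM against 35.4 and 51.0 CPM. In each case the lower Runx1::Runx1t1 pool was well above the higher control pool, and replicate 2 exceeded replicate 1 within the Runx1::Runx1t1 group. Prf1 had 40.9 and 77.4 CPM against 27.8 and 35.3 CPM. For Gzmm the values were 64.5 and 51.5 CPM against 30.8 and 42.7 CPM, so these groups were closer. How many of all genes separate the pools in this way by CPM was not counted. Gzmc had 0.27 and 0.26 CPM against 0.21 and 0.32 CPM, which overlap.

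With edgeR, 0 of 6 members were called in Cd8 T cells and 5 had an unadjusted p under 0.05, against 0.00749% of the 13360 genes called and 21.4% with an unadjusted p under 0.05. DESeq2 called 4 of the 6, and 864 genes in all. The log2 fold changes were 2.82 for Gzma (SE 0.33, adjusted p = 0.071), 2.37 for Gzmb (SE 0.35, adjusted p = 0.075), 2.13 for Gzmk (SE 0.37, adjusted p = 0.083), 0.83 for Prf1 (SE 0.28, adjusted p = 0.18) and 0.60 for Gzmm (SE 0.21, adjusted p = 0.19), all with edgeR. The median over the 6 members was 1.48, beside -0.01 over all genes tested. Without Runx1::Runx1t1 replicate 1, edgeR called 4 of 6 members higher, beside 7.3% of 13710 genes, and without Runx1::Runx1t1 replicate 2 it called 3, beside 1.54% of 13612 genes. In these fits the lone pool is assumed to vary like the others. In sums such as these, more cells that express a gene and more RNA per cell cannot be told apart, so shares and UMIs per positive cell are given as well.

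Gzmk was detected in 25.0% and 45.3% of Cd8 T cells of the Runx1::Runx1t1 pools (Wilson 95% intervals 24.0 to 26.1% and 44.1 to 46.4%) and in 8.74% and 14.8% of those of the control pools (8.05 to 9.48% and 13.97 to 15.7%). Gzmb was detected in 24.9% and 39.0% against 6.84% and 12.2%, and Gzma in 17.7% and 26.0% against 4.01% and 4.95%. Prf1 was found in 24.1% and 35.9% against 16.3% and 20.7%. For these 4 genes the groups did not overlap, but neither did they for 51.3% of all genes in the same direction, and an exact permutation test of 2 pools against 2 cannot go below p = 0.333, the value each of them gave. Gzmm, at 18.5% and 13.5% against 9.89% and 13.98%, overlapped. With 1 cell taken per clonotype, the mean shares of the groups were 13.5% against 8.26% for Gzmk and 13.2% against 7.7% for Gzmb. Over all Cd8 T cells these means were 35.1% against 11.8% and 31.9% against 9.53%. Prf1 went from 30.01% against 18.5% to 21.1% against 17.4%, and Gzma from 21.9% against 4.48% to 10.3% against 3.09%. In that setting Gzmm, at 21.3% against 11.7%, did not overlap either. With every cell thinned to 2000 UMIs, the Gzmk shares were 17.1% and 34.1% against 5.23% and 8.25%, and those of Gzma were 11.6% and 20.4% against 2.51% and 3.41%; thinning left out 81 to 186 shallower Cd8 T cells per pool. Positive cells of the Runx1::Runx1t1 pools also held more molecules: a mean of 14.99 and 21.5 Gzma UMIs per positive cell against 12.5 and 9.98, and 4.45 and 4.87 Gzmb UMIs against 2.58 and 2.63.

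Other cell types in the sort moved with the groups as well. In Cd8 T cells the summed level of 4 mast cell and progenitor markers was 59.0 and 60.7 CPM in the Runx1::Runx1t1 pools against 4.01 and 9.03 CPM in the control pools, with 1 of the 4 markers at 0 in control replicate 1. The 5 myeloid markers ran the other way, at 23.0 and 27.2 CPM against 196 and 83.4 CPM, all of them above 0. The 6 NK markers summed to less in the Runx1::Runx1t1 pools (221 and 184 CPM) than in the control pools (293 and 253 CPM), yet more Cd8 T cells held a UMI of at least 1 of them, 50.8% and 53.4% against 40.6% and 39.8%. The 4 naive T cell markers had a UMI in fewer Cd8 T cells of the Runx1::Runx1t1 pools, 88.2% and 66.6% against 96.8% and 94.0%, while their sums overlapped (1386 and 1199.5 CPM against 1555 and 1269 CPM). The part of these markers in the granzyme differences was not tested.

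In Cd4 T cells Gzmk was the member that rose in the fusion group. It stood at 219 and 365 CPM in the Runx1::Runx1t1 pools and at 22.7 and 36.8 CPM in the control pools, and its groups were far apart. The log2 fold change was 3.33 (SE 0.30, adjusted p = 0.0063, edgeR), a 10.1-fold difference, and it was the 1 member called of 5 tested, against 1.27% of 11636 genes called higher. Gzmk was detected in 26.6% and 41.1% of the Cd4 T cells (24.9 to 28.3% and 39.2 to 43.1%) against 5.68% and 9.45% (4.49 to 7.16% and 7.85 to 11.3%), in a class where 40.4% of all genes had higher shares without overlap. Gzmb had 92.7 and 84.6 CPM against 17.5 and 43.0 CPM, a log2 fold change of 1.60 (SE 0.32, adjusted p = 0.062). Prf1 had 16.8 and 30.4 CPM against 8.17 and 8.86 CPM, a log2 fold change of 1.51 (SE 0.30, adjusted p = 0.060). Neither Gzmb nor Prf1 passed. Leaving out control replicate 1 or control replicate 2 brought Gzmb past the threshold (adjusted p = 0.0092 and 6.8e-04), and leaving out Runx1::Runx1t1 replicate 1 brought Prf1 past it (adjusted p = 0.0084). With 1 cell per clonotype the Prf1 difference was 0.21 (adjusted p = 0.81) and that of Gzmb 0.75 (adjusted p = 0.33), while that of Gzmk was 1.99 (adjusted p = 0.025). Gzma and Gzmm in Cd4 T cells, which lay in the background range, differed by 0.28 (SE 0.45) and -0.09 (SE 0.56) on the log2 scale. The mast cell and progenitor markers moved with the group here too, at 81.6 and 58.4 CPM against 7.83 and 14.3 CPM, with a UMI in 12.1% and 15.3% of Cd4 T cells against 1.46% and 2.502%. The naive markers were lower in the Runx1::Runx1t1 pools (642 and 726 CPM against 944 and 889 CPM), and the NK markers were lower in sum (173 and 196 CPM against 269 and 216 CPM) but found in more cells (28.03% and 39.4% against 24.2% and 23.4%). Their part in the Gzmk difference was not tested.

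Co-receptor-negative T cells showed Gzmk higher and Prf1 lower in the fusion group. Gzmk had 49.98 and 81.0 CPM in the Runx1::Runx1t1 pools against 4.37 and 7.51 CPM in the control pools, a log2 fold change of 3.37 (SE 0.29, adjusted p = 0.0023, edgeR). Prf1 had 20.96 and 21.4 CPM against 27.1 and 31.6 CPM, a log2 fold change of -0.54 (SE 0.11, adjusted p = 0.034), which lost its call without control replicate 2 (-0.43, adjusted p = 0.13). This made 1 of 6 members higher against 4.07% of 12798 genes, and 1 lower against 2.22%. Gzma, at 199 and 60.5 CPM against 52.8 and 80.3 CPM, overlapped, and its high value came from replicate 1 of the fusion group alone: without that pool the log2 fold change was -0.24, against 0.92 with all pools. Gzmb (0.85, SE 0.28) and Gzmm (-0.75, SE 0.27) did not pass.

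The co-receptor-negative class was mixed, and the 6 NK markers summed to 676 and 529 CPM in its Runx1::Runx1t1 cells against 1269 and 1096.5 CPM in its control cells, none of the markers being at 0. Myeloid markers were at 60.8 and 132 CPM against 1544 and 487 CPM, and mast cell and progenitor markers at 234 and 514 CPM against 8.67 and 35.2 CPM, both larger moves than that of the NK markers. Their part in the differences of Gzmk and Prf1 was not tested. Cells with the TRAV11-TRAJ18 rearrangement of invariant NKT cells held Gzmb in 42.7% and 29.8% of cells of the Runx1::Runx1t1 pools and in 12.3% and 21.1% of those of the control pools. Gzmk was found in 2.32% and 8.26% of the same cells against 0% of 400 cells, which allows a share of up to 0.75%, and 1.33%. Other cells with a paired TCR held Gzmk in 12.0% and 20.2% against 1.64% and 3.41%. Of co-receptor-negative cells in expanded clones, 54.8 to 93.7% per pool shared their clonotype with a cell that had a co-receptor UMI. Clonotypes with more Cd4 than Cd8 T cells held 207 of 366 and 150 of 190 of these cells in the Runx1::Runx1t1 pools. Clonotypes with more Cd8 T cells held 68 and 25. In the control pools the numbers were 56 of 186 and 70 of 193, against 46 and 74. Part of the class thus shared clones with Cd4 T cells, so the Gzmk differences of these classes were not independent.

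In the main fits the group difference in Gzmk was called unequal in size between classes. The difference in Cd8 T cells was smaller than that in Cd4 T cells by 1.26 on the log2 scale (SE 0.14, adjusted p = 0.026, edgeR interaction term with pool as a block), a call made for 1 of 6 members against 0.126% of 13457 genes in that direction. Against co-receptor-negative T cells it was smaller by 1.30 (SE 0.16, adjusted p = 0.041), again 1 of 6 members, against 0.34% of 13822 genes. Both calls were lost without control replicate 1 (adjusted p = 0.20 and 0.19), without control replicate 2 (adjusted p = 0.22 and 0.10) and without the pool block (adjusted p = 0.92 and 0.50). The corresponding terms for the other 5 members did not pass, and the comparison with the co-receptor-negative class was chosen after the data were seen. Gzmk shares in Cd4 T cells of control replicate 1 and in control co-receptor-negative T cells lay within the background range. The co-receptor-negative and Cd4 classes also shared expanded clones, so the terms were not independent.

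**Figure D2:**
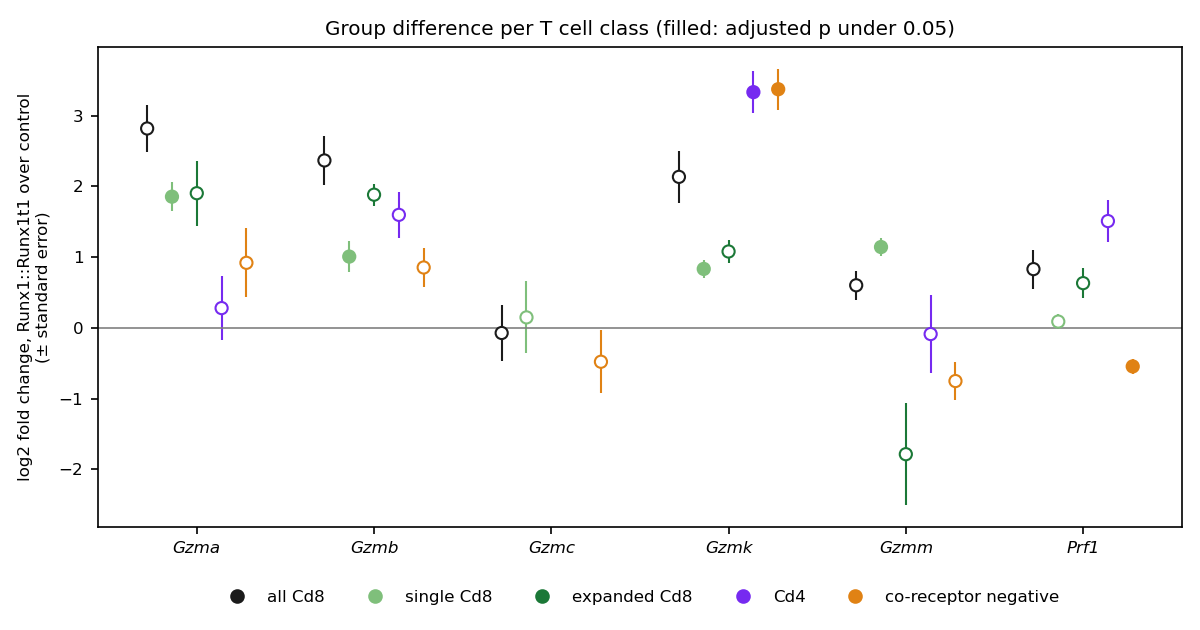
Fitted log2 fold change of each gene, Runx1::Runx1t1 over control, in the classes of T cells and in Cd8 T cells of single and expanded clones; bars are 1 SE from edgeR, filled points passed the adjusted threshold and open points did not. Gzmk lies near 3.3 in Cd4 and co-receptor-negative T cells and at 2.13 in Cd8 T cells, and Gzmm changes sign between single and expanded Cd8 T cells.

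The TCR libraries then allowed each gene to be set against clone size. A clonotype was the set of cells in a pool whose leading TRA and TRB chains had the same CDR3 nucleotides, and a clone was called expanded with 2 or more cells. Expanded clones made up 24.8% and 44.4% of clonotyped Cd8 T cells in the Runx1::Runx1t1 pools and 8.22% and 14.8% in the control pools. Gzma, Gzmb, Gzmk and Prf1 were higher in expanded than in single Cd8 T cells in all 4 pools, while Gzmm and Gzmc were not called. That is 4 of 6 members higher, against 11.4% of the 12736 genes tested (edgeR, pool as a block). Gzma had 1339.8 and 2083 CPM in expanded cells of the Runx1::Runx1t1 pools against 73.6 and 66.0 CPM in their single cells, and 627 and 237 CPM against 14.4 and 24.5 CPM in the control pools. The log2 difference was 4.21 (SE 0.37, adjusted p = 0.0029), or 18.5-fold. Gzmk had 562 and 765 CPM against 31.0 and 41.9 CPM in the Runx1::Runx1t1 pools, and 317 and 271 CPM against 19.4 and 21.9 CPM in the control pools. Its log2 difference of 3.75 (SE 0.10, adjusted p = 1.6e-04) had the smallest error of the 4. Gzmb was higher by 3.13 on the log2 scale (SE 0.21, adjusted p = 0.0017) and Prf1 by 1.80 (SE 0.15, adjusted p = 0.0029). Gzmm differed by -0.23 (SE 0.81, adjusted p = 0.87), with pools that disagreed, as described next. Expanded Cd8 T cells had fewer UMIs per cell than single ones in every pool, with medians of 5587, 5815, 5103.5 and 5754.5 against 8524, 8776, 7053 and 7231.

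Gzmm took opposite courses in the groups. In control pools it was 98.9 and 94.9 CPM in expanded Cd8 T cells against 28.1 and 38.5 CPM in single cells. In the Runx1::Runx1t1 pools it was 50.4 and 9.87 CPM in expanded cells against 71.4 and 74.2 CPM in single cells. Expanded cells thus held more Gzmm than single cells in both control pools and less in both Runx1::Runx1t1 pools. The interaction of expansion and group was -3.25 on the log2 scale (SE 0.72) with an adjusted p of 0.15, so it did not pass; with edgeR 0 of 12736 genes did, 16.7% had an unadjusted p under 0.05, among them 3 members (Gzmb, Gzmm and Prf1), and DESeq2 called 184 genes, 1 of them a member. The term was -4.51 without Runx1::Runx1t1 replicate 1 and -2.08 without Runx1::Runx1t1 replicate 2, and these fits called it, beside 21.8% and 5.92% of all genes, with the lone pool assumed to vary like the others. It was also called with 1 cell per clonotype (-1.86, adjusted p = 1.6e-08, beside 1.96% of genes) and without the largest clonotype of each pool (-2.85, adjusted p = 0.023, beside 3.02%), but not without either control pool (adjusted p = 0.53 and 0.69). The largest clonotype of a pool was chosen over all T cell classes. Leaving it out took Cd8 T cells from 7174 to 6083 in Runx1::Runx1t1 replicate 2 and from 6788 to 6785 in control replicate 2. In the other pools no Cd8 T cell was left out. The interaction terms of the other members were 0.89 for Gzmb (SE 0.18), 0.54 for Prf1 (SE 0.20), 0.27 for Gzmk (SE 0.14), 0.16 for Gzma (SE 0.65) and -1.91 for Gzmc (SE 1.03).

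Clone size in finer steps gave the shape of these differences. In Cd8 T cells of control replicate 1, Gzmk was detected in 5.72% of single cells, 40.5% of cells in clones of 2 to 4 cells and 68.1% of cells in clones of 5 to 19 cells, the largest it had. In control replicate 2 the shares were 7.38%, 57.9% and 66.7%, with 62.0% in clones of 20 to 99 cells. In Runx1::Runx1t1 replicate 1 they were 8.98%, 62.9%, 80.6%, 70.4% and, in clones of 100 or more, 95.3%. Runx1::Runx1t1 replicate 2 gave 11.7%, 77.3%, 89.8%, 94.9% and 96.0%. The step from single cells to clones of 2 to 4 cells was the widest in every pool, and the Runx1::Runx1t1 pools were above the control pools in each of the 3 smaller bins.

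Gzmb followed a like course, from 5.10% and 8.42% of single cells to 35.5% and 37.1% in clones of 5 to 19 cells in the control pools, and from 11.0% and 11.0% to 62.2% and 70.8% in the Runx1::Runx1t1 pools. In clones of 100 or more cells, which only the Runx1::Runx1t1 pools had, it reached 85.9% and 83.3%. Prf1 went from 15.1 to 21.2% of single cells over the 4 pools to 40.6 to 60.6% in clones of 5 to 19 cells. Gzmm fell off with size in the Runx1::Runx1t1 pools, from 21.6% and 21.9% of single cells to 10.0% and 1.70% in clones of 20 to 99 cells, and to 0.469% (1 of 213 cells, 0.0829 to 2.61%) and 0.456% (7 of 1536 cells, 0.221 to 0.938%) in clones of 100 or more. In the control pools it went from 9.33% and 13.1% of single cells to 29.0% and 23.4% in clones of 5 to 19 cells. The bins of 100 or more cells hold 2 and 5 clonotypes, whose cells share a receptor and are not replicates of one another.

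**Figure D3:**
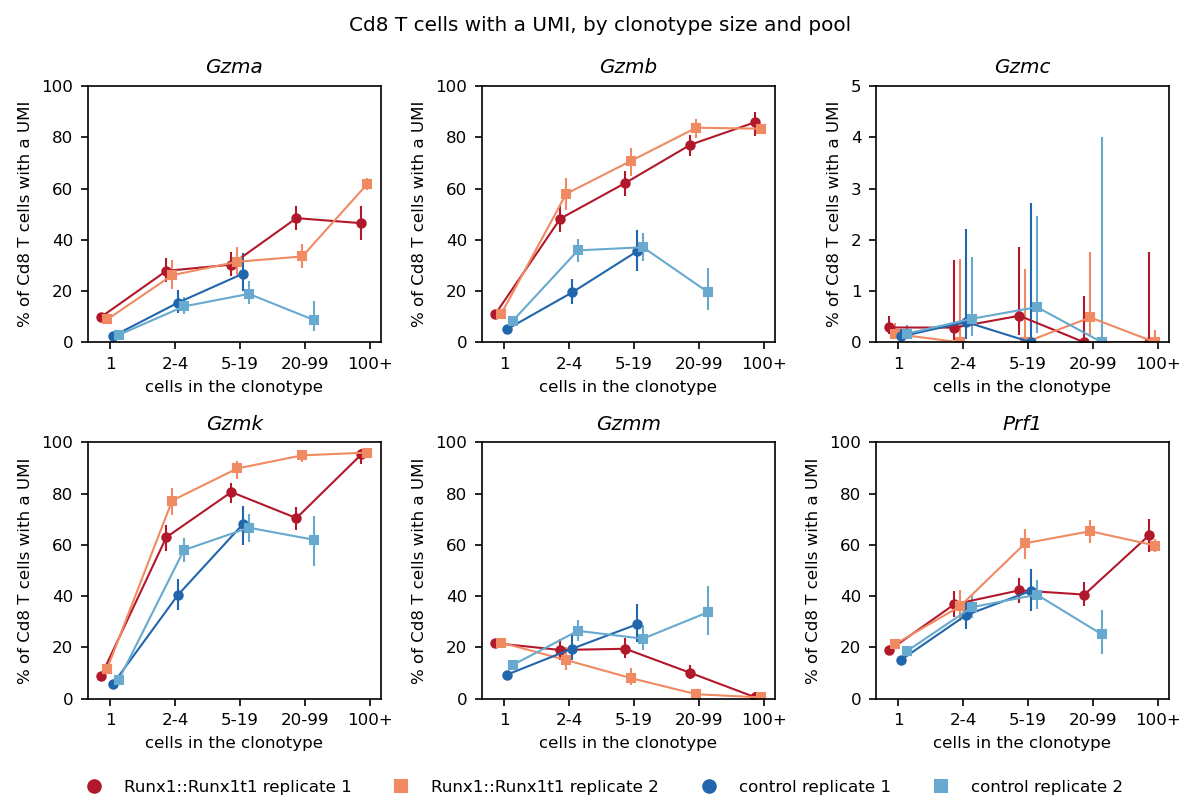
Percentage of Cd8 T cells with at least 1 UMI of each gene, by the number of cells of their clonotype in the pool, with 1 line per pool and Wilson 95% intervals as bars. Gzmk, Gzmb and Prf1 rise from single cells to clones of 5 to 19 cells in all 4 pools, and Gzmm falls to under 0.5% in clones of 100 or more cells, which only the Runx1::Runx1t1 pools had, while in both control pools it rises to 29.0% and 23.4% in clones of 5 to 19 cells.

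Among single Cd8 T cells, those of the fusion group held more Gzma, Gzmm, Gzmk and Gzmb. Single means that 1 cell of the clonotype was captured in the pool, so a larger clone sampled once also counts as single. The comparisons within single and within expanded cells were chosen after the data were seen. Single cells gave 4 of 6 members called higher, against 3.45% of the 12538 genes tested (edgeR). Gzma was 1.86 higher on the log2 scale (SE 0.21, adjusted p = 0.0084), Gzmm 1.14 higher (SE 0.13, adjusted p = 0.0084), Gzmk 0.83 higher (SE 0.13, adjusted p = 0.019) and Gzmb 1.01 higher (SE 0.22, adjusted p = 0.043). Prf1 differed by 0.09 (SE 0.10, adjusted p = 0.64), its 26.1 and 29.4 CPM overlapping the 24.0 and 28.7 CPM of the control pools. Without control replicate 1 the Gzmk and Gzmb calls were lost (adjusted p = 0.051 and 0.053), and the Gzmb call was also lost without either Runx1::Runx1t1 pool (adjusted p = 0.089 and 0.15). Single Cd8 T cells were deeper in the fusion group, with medians of 8524 and 8776 UMIs against 7053 and 7231, a difference that CPM scales out.

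In expanded Cd8 T cells the group differences were 1.90 for Gzma (SE 0.46), 1.88 for Gzmb (SE 0.16), 1.08 for Gzmk (SE 0.16), 0.63 for Prf1 (SE 0.21) and -1.79 for Gzmm (SE 0.72) on the log2 scale. With edgeR 0 of 5 members were called, and 0% of the 10629 genes tested; 4 members and 19.1% of genes had an unadjusted p under 0.05, and DESeq2 called 2 members and 353 genes. Gzmb, at 584 and 621 CPM against 135 and 169.5 CPM, was the most separated for its error (adjusted p = 0.091). Without Runx1::Runx1t1 replicate 1, edgeR called all 5 tested members, beside 23.3% of 10715 genes, and without Runx1::Runx1t1 replicate 2 it called 4, beside 7.4% of 10577 genes.

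Expanded Cd4 T cells held more Gzmk than single Cd4 T cells, at 477 and 662 CPM against 37.6 and 82.4 CPM in the Runx1::Runx1t1 pools and 54.6 and 63.7 CPM against 13.7 and 27.3 CPM in the control pools. The log2 difference was 2.71 (SE 0.33, adjusted p = 0.0022, edgeR), the 1 member called of 5 tested, against 3.66% of 10891 genes called higher. In control Cd4 T cells of clones of 5 to 19 cells it was found in 12.6% and 23.3% of cells, against 41.9% and 75.9% in the Runx1::Runx1t1 pools. In clones of 100 or more, which only the Runx1::Runx1t1 pools had, 95.9% and 95.9% of Cd4 T cells held it. Prf1 differed by 1.39 (SE 0.41, adjusted p = 0.085) and passed without control replicate 1 (1.74, adjusted p = 0.025). Gzmb differed by 0.55 (SE 0.32, adjusted p = 0.37).

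Large clonotypes differed most in Gzma within the fusion group, and in Gzmb between the Runx1::Runx1t1 clonotypes and the 4 of control replicate 2. Of the clonotypes with at least 20 Cd8 T cells, 30 in all, 12 were in Runx1::Runx1t1 replicate 1, 14 in Runx1::Runx1t1 replicate 2, 4 in control replicate 2 and none in control replicate 1. Gzmb was found in 60 to 100% of the cells of each of the 26 Runx1::Runx1t1 clonotypes, and in 8.33 to 31.8% (median 18.4%) of those of the 4 control clonotypes. These ranges did not overlap, but how many of all genes separate the same clonotypes was not counted. Gzmk was found in 27.8 to 100% of cells per clonotype in the Runx1::Runx1t1 pools and in 40.9 to 76.2% in control replicate 2. Gzma ran from 0 to 95.5% in Runx1::Runx1t1 replicate 1 (median 56.5%), from 0 to 90.3% in Runx1::Runx1t1 replicate 2 (median 21.7%) and from 0 to 18.2% in control replicate 2 (median 4.36%). Gzma thus varied over nearly the whole range among Runx1::Runx1t1 clonotypes that all held Gzmb in over 50% of their cells. These are cells of 3 pools, with all control clonotypes from 1 of them, and carry no test. The largest clonotype, with 1091 Cd8 T cells in Runx1::Runx1t1 replicate 2, held Gzma in 82.0%, Gzmb in 86.8%, Gzmk in 95.9%, Prf1 in 63.8% and Gzmm in 0.275% of cells. The next in that pool, with 165 cells, held Gzmb in 64.8% and Gzmk in 92.7% but Gzma in 5.45% of cells. A like contrast stood in Runx1::Runx1t1 replicate 1, where the clonotypes of 111 and 102 cells held Gzma in 82.0% and 7.84% of cells, with Gzmk in 95.5% and 95.1%. In that pool the clonotype of 36 cells had Gzmb in 86.1% and Gzma in 75.0% of cells with Gzmk in 27.8%, the lowest Gzmk share of the 30. Gzmm was under 10% in 8 of the 12 clonotypes of Runx1::Runx1t1 replicate 1, 12 of the 14 of replicate 2 and 1 of the 4 of control replicate 2, and its highest share, 59.1%, was in a control clonotype of 22 cells that had Gzmb in 31.8% of cells.

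**Figure D4:**
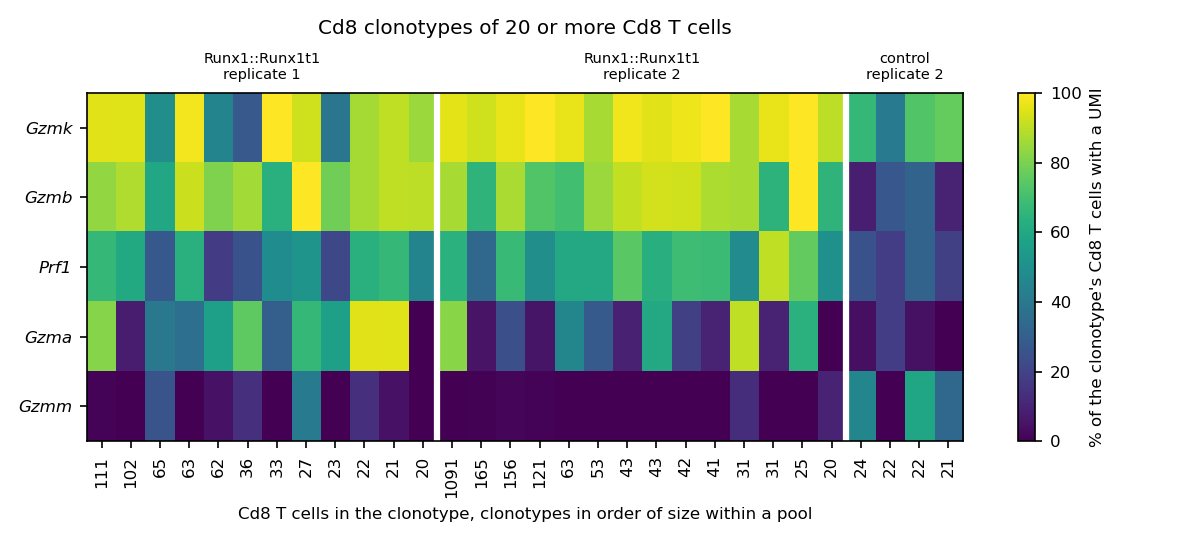
Percentage of cells with at least 1 UMI of each gene in the 30 clonotypes with at least 20 Cd8 T cells, as a color scale from 0 to 100%, with 1 column per clonotype, labeled by its number of Cd8 T cells and grouped by pool, and 1 row per gene. The Gzmk and Gzmb rows are bright in most Runx1::Runx1t1 clonotypes. The Gzma row takes values spread from 0 to 95.5%, and the Gzmm row is dark except in a few clonotypes, 3 of them in control replicate 2.

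Which genes were found in the same cell was described by the ratio of cells with both genes to the number that independent detection would give. In Cd8 T cells this ratio was above 1 in all 4 pools for 6 of the 10 pairs without Gzmc, namely every pair among Gzma, Gzmb, Gzmk and Prf1. For Gzma and Gzmb it was 2.49 and 1.91 in the Runx1::Runx1t1 pools and 7.15 and 4.78 in the control pools, and for Gzmb and Gzmk 2.56 and 1.89 against 4.06 and 2.94. The ratio cannot rise far where both genes are frequent, so the pools are not comparable by it. The odds ratio, which has no such ceiling, was 8.03 and 8.02 against 17.9 and 12.8 for Gzma and Gzmb, and 12.9 and 24.9 against 7.58 and 6.37 for Gzmb and Gzmk. By odds ratio the former pair was thus the stronger in both control pools and the latter in both Runx1::Runx1t1 pools. In Runx1::Runx1t1 replicate 2, 85.7% of the Gzmb-positive Cd8 T cells also held Gzmk, and in Runx1::Runx1t1 replicate 1 64.0% did, against 35.5% and 43.5% in the control pools. Gzmm paired with Gzmk at 3.02 and 2.09 in the control pools and at 0.997 and 0.461 in the Runx1::Runx1t1 pools, so those genes were found together in control Cd8 T cells and apart in replicate 2 of the fusion group. These ratios carry no test, since cells share a library and deep cells detect more of every gene; at 2000 UMIs per cell the Gzma and Gzmb ratio ranged from 2.30 to 10.7.

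Splitting the cells by clonal state changed the picture. Among single Cd8 T cells the ratio for Gzmb and Gzmk was 3.72 and 3.40 in the Runx1::Runx1t1 pools and 4.33 and 3.28 in the control pools, and that for Gzmk and Gzmm was 1.43 and 1.02 against 3.23 and 2.45. Among expanded cells Gzmb and Gzmk gave 1.08 and 1.02 in the Runx1::Runx1t1 pools, where both genes are frequent, and 1.38 and 1.10 in the control pools. The odds ratio was 2.46, 4.07, 2.88 and 1.47 for that pair in expanded cells, against 7.90, 7.37, 6.71 and 5.15 in single cells. Gzma and Gzmb also kept odds ratios above 1 in expanded cells, from 2.89 to 7.62. Gzmk and Gzmm gave ratios of 0.975 and 0.949 in expanded cells of the Runx1::Runx1t1 pools and 1.27 and 1.11 in those of the control pools.

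Taking Gzma, Gzmb, Gzmk and Prf1 as a set, all 4 were found together in 4.24% and 11.3% of Cd8 T cells of the Runx1::Runx1t1 pools and in 0.55% and 1.06% of those of the control pools. None of the 4 was found in 51.9% and 37.5% against 74.0% and 64.9%. Prf1 alone was the most common pattern in control Cd8 T cells after none, at 11.4% and 12.0%, and it was at 9.22% and 7.90% in the Runx1::Runx1t1 pools. Cd4 T cells had another mixture: Gzmk alone, without the other 3, was found in 15.6% and 20.6% of the Runx1::Runx1t1 Cd4 T cells and in 4.91% and 8.06% of the control ones. Most Prf1-positive Cd4 T cells of the Runx1::Runx1t1 pools also held Gzmk (73.6% and 84.6%), against 11.9% and 17.4% in the control pools, where these were 5 and 8 cells.

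**Figure D5:**
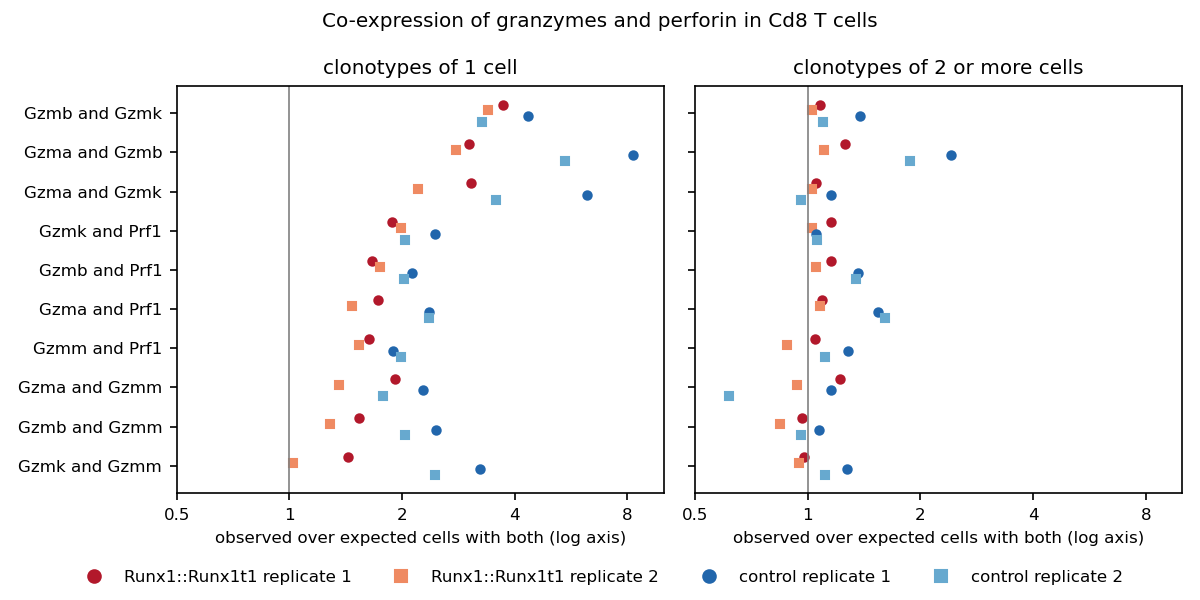
Ratio of observed to expected numbers of Cd8 T cells with both genes of a pair (logarithmic axis, 1 is independence) among cells of single clones and of expanded clones, with 1 point per pool and no error bars. In single clones all 10 pairs are above 1 in all 4 pools, and in expanded clones the points lie between 0.843 and 1.26 in the Runx1::Runx1t1 pools and between 0.617 and 2.41 in the control pools, with Gzma and Gzmb of control replicate 1 the highest.

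Across 24 profiles (class and clonal state in each pool), the member patterns most alike were those of Gzma and Gzmb (Pearson r = 0.82) and of Gzmb and Prf1 (r = 0.77), while Gzmk and Gzmm had r = -0.06. Among all 10173 genes compared, the pattern of Prf1 was most like that of Nkg7 (r = 0.93), a cytotoxic granule membrane protein, followed by Pik3ap1, H2afj, Fbxw4 and Ccl4. The genes most like Gzmk were Smpdl3b (r = 0.94), Adrb1, Rpa2, Lck and Kcnk5. For Gzmb they were Bspry (r = 0.92), Dock10, Selenon, Atp6v0a2 and Ppp3ca, and for Gzma Arl6ip5 (r = 0.85), Lamb3, Dnaja4, Tacc1 and Itgax. For Gzmm they were Hid1 (r = 0.91), Npm3, Epsti1, Atp8b4 and Haao, and the pattern of Gzmc, from few counts, was nearest to Ccdc88b (r = 0.75), Gbe1, Pex3, Trbv13-1 and Fbxo17. The profiles share pools and mice, so these values describe likeness and carry no p.

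The partners of the granzymes were read from lists of whole pathways, and M6pr, Tcf7 and the genes named below for other classes were chosen after their values were seen. Among 10 granule proteins and their handlers, 3 were higher in expanded than in single Cd8 T cells and none lower, beside 11.4% of all genes higher and 11.4% lower (edgeR): Nkg7 by 1.27 (SE 0.17, adjusted p = 0.0074), Cst7, an inhibitor of the cathepsins, by 0.66 (SE 0.07, adjusted p = 0.0041), and M6pr, a receptor that sorts proteins to lysosomes, by 0.30 on the log2 scale. Ctsc, the protease that activates granzymes, differed by 0.86 (adjusted p = 0.14). The protective serpins gave 2 higher of 3 tested, Serpinb9, the inhibitor of granzyme B, by 1.58 (SE 0.17, adjusted p = 0.0044) and Serpinb6b by 1.11 (SE 0.17, adjusted p = 0.0099). Of 11 exocytosis genes, 6 were higher, led by the syntaxin Stx11 at 2.05 (SE 0.16, adjusted p = 0.0028) and Sytl2, a partner of Rab27a, at 1.43 (SE 0.19, adjusted p = 0.0073). Of 8 regulators, 6 were higher, led by the transcription factors Prdm1 at 2.84 (SE 0.23, adjusted p = 0.0029) and Zeb2 at 2.74 (SE 0.29, adjusted p = 0.0044), and Tcf7, a factor of naive and stem-like T cells, was lower by 1.54 (SE 0.43, adjusted p = 0.049). List medians were 0.25, 1.11, 0.38 and 1.02 on the log2 scale in this order, beside 0.01 over all genes.

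Between the groups, no gene of these lists was called in Cd8 T cells with edgeR, although an unadjusted p under 0.05 was found for 7 of 10 granule genes, 3 of 3 serpins, 5 of 11 exocytosis genes and 4 of 8 regulators, beside 21.4% of all genes tested. In Cd4 T cells, where Gzmk rose, Nkg7 was higher by 1.46 (SE 0.12, adjusted p = 0.0044) and Cst7 by 0.96 (SE 0.15, adjusted p = 0.032), 2 of the 10 granule genes, beside 1.27% of all genes higher and 0.662% lower. Of the 8 regulators in Cd4 T cells, 4 were higher and 1 was lower: Eomes by 2.69 (SE 0.35), Prdm1 by 1.49 (SE 0.20), Bhlhe40 by 1.01 (SE 0.09) and Runx3 by 0.70 (SE 0.11), and Tcf7 by -0.58 (SE 0.08). Of the exocytosis list in Cd4 T cells, Sytl2 was higher and Lyst lower, and the serpin Serpinb1a was higher by 1.37 (SE 0.20, adjusted p = 0.028). In single Cd8 T cells the regulators Eomes and Bhlhe40 were higher, by 1.06 (SE 0.07, adjusted p = 0.0010) and 0.80 (SE 0.14, adjusted p = 0.023), with Serpinb1a, while Ctsh, a cathepsin, was lower, beside 3.45% of all genes higher and 2.07% lower.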

How the data were processed

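RNA of sorted bone marrow T cells was read by 10x 5' gene expression and TCR libraries, 4 of each. The deposited UMI counts per gene and barcode were made by the authors with Cell Ranger 6.1.2 on GRCm38, without normalization, and the release of the annotation is not given in the sources used here. The deposited TCR contig tables give chains, CDR3 and UMI counts per barcode. Depth was 90958101 to 102883449 UMIs per pool, which limits genes with few counts, such as Gzmc.

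Barcodes under 200 detected genes or over 15% mitochondrial UMIs were dropped. The automatic threshold of Scrublet (scanpy 1.11.5) marked 1, 684, 0 and 1 barcodes, and after that was seen the 5% with the highest scores in each library were removed (684 to 766 barcodes). Classes were set by raw UMIs, so low depth can move a cell to the co-receptor-negative class. Counts were summed per pool, class and clonal state and tested with edgeR 4.0.16 (quasi-likelihood, TMM, filterByExpr, Benjamini-Hochberg over all genes, threshold 0.05) in R 4.3.3. Group differences had no block, and comparisons between classes or clonal states had the pool as block. DESeq2 1.42.0 was an alternative, as were RLE normalization, no filter on low counts, stricter cell filters, doublets kept, 2 or more co-receptor UMIs, a larger minimum clone, 1 cell per clonotype, and leaving out the largest clonotypes or each pool. The largest clonotype of each pool was chosen over all classes, and it was mainly one of Cd8 T cells only in Runx1::Runx1t1 replicate 2. The setting of 1 cell per clonotype kept only cells with a clonotype. The fits were tested on simulated data. Shares have Wilson 95% intervals and exact permutation tests (scipy 1.17.1). Pools are the replicates, so p-values of group differences measure the spread between pools of 2 mice. With the pool as block, they measure how the difference within a pool varies from pool to pool.

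The members and gene lists were chosen with earlier results of these data known, and 3 comparisons (group within single and within expanded Cd8 T cells, and class by group with co-receptor-negative T cells) were chosen after the data were seen. All members were named. From each pathway list the 2 genes with the largest called change in Cd8 T cells between groups or by expansion were named, with Ctsc and Serpinb9, and the 5 genes most like each member by Pearson r of log2(CPM + 1) over profiles of at least 20 cells.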

Additional observations from a re-analysis of the deposited data

Results flagged for a closer look

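The Runx1::Runx1t1 against control difference in Gzmk was called unequal in size between classes of T cells in the main fits, by a test of the difference itself. The term for Cd8 against Cd4 T cells was -1.26 on the log2 scale (SE 0.14, adjusted p = 0.026, edgeR with pool as a block), the group difference being 2.13 in Cd8 and 3.33 in Cd4 T cells. The term for Cd8 against co-receptor-negative T cells was -1.30 (SE 0.16, adjusted p = 0.041), the group difference being 3.37 in the latter. Gzmk was higher in the Runx1::Runx1t1 pools in every class, so the terms concern size and not direction. Neither call held without control replicate 1, without control replicate 2 or without the pool block. Gzmk shares in Cd4 T cells of control replicate 1 and in control co-receptor-negative T cells lay within the background range.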

How the results depend on the processing

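Gzmk in Cd4 and co-receptor-negative T cells, and the 4 members called by expansion in Cd8 T cells, kept direction and call under every alternative run. Counts below are members called. The share of all genes called changed between settings as well and is given for only some of them. The counts therefore describe dependence on the processing and are no result about the members. In Cd8 T cells the group count of 0 became 4 with DESeq2, 3 with no filter on low counts, 3 without the largest clonotype of each pool, 4 with 1 cell per clonotype and 0 to 4 when 1 pool was left out; genes called went from 1 to 864 with DESeq2 and 799 with no filter. In Cd4 T cells the count of 1 became 2 with DESeq2, with doublets kept and with 2 or more co-receptor UMIs, and 1 to 2 when 1 pool was left out. In co-receptor-negative T cells the count of 2 became 4 with 1 cell per clonotype and 2 to 4 when 1 pool was left out. Cd8 against co-receptor-negative T cells went from 3 to 5 without the largest clonotypes, 5 with 1 cell per clonotype, 2 with DESeq2 and 2 to 4 when 1 pool was left out (2 without Runx1::Runx1t1 replicate 1 and without control replicate 2). Expanded against single Cd4 T cells went from 1 to 2 with no filter, with 2 or more co-receptor UMIs and without control replicate 1 (range 1 to 2). Expansion by group went from 0 to 1 with DESeq2, 2 with no filter, 2 without the largest clonotypes, 2 with 1 cell per clonotype and 0 to 4 when 1 pool was left out. Class by group for Cd8 and Cd4 T cells went from 1 to 3 with no filter, 2 with 2 or more co-receptor UMIs, 2 with 1 cell per clonotype and 0 to 4 when 1 pool was left out. For Cd8 and co-receptor-negative T cells it went from 1 to 3 with DESeq2, 4 with no filter, 2 with doublets kept, 4 without the largest clonotypes, 3 with 1 cell per clonotype and 0 to 5 when 1 pool was left out. In expanded Cd8 T cells the group count of 0 became 2 with DESeq2, 5 with no filter, 2 without the largest clonotypes, 3 with 1 cell per clonotype and 0 to 5 when 1 pool was left out, and in single Cd8 T cells 4 became 2 to 4. Genes called rose with the members in the larger counts, in co-receptor-negative T cells from 805 to 1125 with 1 cell per clonotype, in expanded Cd8 T cells from 0 to 1325 with no filter and for class by group with co-receptor-negative T cells from 91 to 1445 with 1 cell per clonotype. The cause of these shifts was not tested. Fits with 1 pool in a group assume that it varies like the others.

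The replicate numbers of the labels are shared by the groups without a stated pairing; deviations of same-numbered pools correlated at 0.26, 0.21 and 0.30 in Cd8, Cd4 and co-receptor-negative T cells. With the replicate number as a block, the group counts were 4 in Cd8 (902 of 13360 genes), 3 in Cd4 (520 of 11636), 4 in co-receptor-negative, 2 of them higher and 2 lower (1934 of 12798), and 1 in expanded Cd8 T cells (51 of 10629), and genes called in single Cd8 T cells went from 691 to 2321, and without the pool block both class by group counts were 0.

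Signs that turned, none of them called in the main fits, were as follows on the log2 scale. Gzmc between groups in Cd8 T cells ranged from -0.35 to 0.30 when 1 pool was left out (0.0082 without Runx1::Runx1t1 replicate 2, 0.30 without control replicate 2) and became 1.02 with 2 or more co-receptor UMIs, 0.025 without the largest clonotypes and 0.21 with 1 cell per clonotype. In Cd4 T cells Gzma ranged from -0.66 without Runx1::Runx1t1 replicate 1 to 0.85 and became -0.13 with 2 or more co-receptor UMIs and -0.031 with 1 cell per clonotype, and Gzmm ranged from -0.83 to 0.54 (0.41 without Runx1::Runx1t1 replicate 2, 0.54 without control replicate 1) and became 0.33 with 2 or more co-receptor UMIs. In co-receptor-negative T cells Gzma ranged from -0.24 without Runx1::Runx1t1 replicate 1 to 1.53. Gzmk in Cd8 against Cd4 T cells became -0.077 and -0.050 without control replicates 1 and 2, -0.10 with 2 or more co-receptor UMIs and -0.13 with 1 cell per clonotype, and at most 0.41 when 1 pool was left out. Gzmb in Cd8 against co-receptor-negative T cells ranged from -0.051 without Runx1::Runx1t1 replicate 2 to 0.63 and became -0.73 with 1 cell per clonotype. By expansion, Gzmm in Cd8 T cells ranged from -0.90 to 0.59 (0.054 and 0.59 without Runx1::Runx1t1 replicates 1 and 2) and became 0.30 with 1 cell per clonotype, and in Cd4 T cells Gzma ranged from -0.43 without Runx1::Runx1t1 replicate 1 to 1.23 and Gzmm from -0.30 to 0.056 without control replicate 1. Expansion by group for Gzma ranged from -0.92 without control replicate 2 to 1.20 (-0.19 without Runx1::Runx1t1 replicate 2) and became -0.57 without the largest clonotypes and -0.0088 with expanded clones of 5 or more cells. Class by group for Cd8 and Cd4 T cells ranged from -1.29 to 0.21 without control replicate 2 for Gzmc, with 0.62 at 2 or more co-receptor UMIs, and from -0.16 without control replicate 1 to 1.38 for Gzmm. In single Cd8 T cells Gzmc ranged from -0.17 without control replicate 1 to 0.57 and became -0.0032 with doublets kept, and Prf1 ranged from -0.044 without control replicate 1 to 0.24. In shares, the Gzmc difference became -0.032 percentage points in Cd8 T cells at 2 or more UMIs, and in co-receptor-negative T cells -0.097 thinned to 2000 UMIs, -0.024 at 2 or more UMIs, -0.045 with 1 cell per clonotype and -0.052 and -0.038 without Runx1::Runx1t1 replicate 2 and control replicate 1. That of Gzmm in Cd4 T cells became 0.0074 at 2 or more UMIs and 0.095 and 0.085 without the same pools, and that of Gzmb in co-receptor-negative T cells -0.95 without control replicate 1.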

Other observations

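T cells with UMIs of both co-receptors, 591 and 721 in the Runx1::Runx1t1 pools and 202 and 207 in the control pools, entered no comparison. Gzmk was found in 30.3% and 50.2% of them in the Runx1::Runx1t1 pools and in 11.4% and 13.04% in the control pools. Gzmb was found in 26.7% and 34.8% against 10.9% and 13.04%, and Gzma in 15.9% and 17.9% against 6.44% and 3.38%. Prf1 was found in 15.9% and 28.8% against 11.4% and 12.1%, and Gzmm in 9.64% and 7.49% against 10.4% and 5.80%. These barcodes may hold more than 1 cell, which was not tested.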
